A study of Mus musculus with 12 samples.

Results

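The transcripts that set the hypothalamus apart from 5 other regions of the mouse brain were measured on 11 of the 12 one-colour arrays of a study of mice lacking interleukin-18. The hypothalamus was represented by the 2 arrays titled for it, KO and WT. Regions were taken from the titles, since the extract protocol on every sample describes only the prefrontal cortex. They were set against 9 arrays, the KO and WT arrays of olfactory bulb, prefrontal cortex, striatum and hippocampus and the KO array of the amygdala. The array labelled Amygdala WT was left out, for the reason given with the array values. KO mice carried the IL-18-/- deletion, which removes the inflammatory cytokine interleukin-18, and WT mice were littermates. Both were F2 males of 12 weeks, bred from IL-18-/- males and C57BL/6J females and labelled C57BL/6. Each array held 400 ng of RNA pooled from 5 mice and labelled with Cy3, so that every region and genotype had 1 array. Per the series' design text the brains were perfused and cut into slices, and hypothalamus, amygdala and hippocampus came from slices of the same level. Whether 1 set of mice gave the pools of all regions is not stated in the labels. The KO and WT arrays of a region served as its repeats, so p-values measure the spread between these pools and not the spread between mice.

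The hypothalamus is a small region at the base of the forebrain whose neurons govern hormone release, feeding, body temperature, water balance and sleep. Much of its output is peptidergic. Oxytocin and vasopressin neurons of the paraventricular and supraoptic nuclei send axons into the posterior pituitary, arcuate neurons release hormones that act on the anterior pituitary and peptides that govern appetite, and neurons of the lateral hypothalamus make orexin or melanin-concentrating hormone, which act on arousal and feeding.

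Levels are given as the log2 of the processed signal minus the 75th percentile of its array, so that a level of 0 equals that percentile. Differences are log2 too, hypothalamus minus the mean of the 5 other regions, with each region weighted equally.

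Il18, the targeted gene, read -3.78 on the hypothalamus KO array and 0.75 on the hypothalamus WT array. In the other regions it lay between -4.35 and -3.12 on the 5 KO arrays and between 0.57 and 1.12 on the 4 WT arrays used. Il18 separated the genotypes on all 11 arrays, and where its probe lies relative to the deletion is not stated in the labels. The 75th percentile of the signal ran from 208 to 768 over the 12 arrays, lowest on the 2 striatum arrays, and 60.8% to 81.3% of spots carried the scanner's flag for a signal well above background. Across 8747 bright genes, which are not independent replicates, the hypothalamus KO and WT arrays correlated at r = 0.996, and 8 of these genes lay at least 2-fold apart. The array labelled Amygdala WT correlated with the hypothalamus WT array at r = 0.997, with 2 genes at least 2-fold apart. It also carried the hypothalamic peptides, with Pmch at 6.02, Hcrt at 5.77, and Oxt and Avp both at 4.70. It therefore goes against its label, and it enters the results only where it is named. The Amygdala KO array correlated with the hypothalamus KO array at r = 0.98 and had 88 genes at least 2-fold apart from it. The other 8 arrays correlated with the hypothalamus arrays at r = 0.831 to 0.941. The 6 slides each held 1 region, so slide and region cannot be told apart. Hypothalamus, olfactory bulb, striatum and amygdala arrays shared 1 scan day, and prefrontal cortex and hippocampus arrays another.

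Pmch, Hcrt, Oxt and Avp, the genes that mark hypothalamic peptide neurons, were higher in the hypothalamus by 89.2-fold to 618-fold, and all 4 had both hypothalamus arrays above all 9 others. Pmch was well above background on 6 of the 9 others and Avp on 8. Their folds thus rest in part on values that were not well above background. The promoter of each of the 4 genes, the 250 bases before the RefSeq start site in assembly GRCm38.p6, is shown as the regulatory sequence next to the gene. Capitals mark TATAAA, its variant CATAAA, and AGGTCA with its reverse complement TGACCT, the half-site read by oestrogen and related nuclear receptors. These motifs were chosen after reading the windows.
Pmch, chr10:88090822-88091071, plus strand: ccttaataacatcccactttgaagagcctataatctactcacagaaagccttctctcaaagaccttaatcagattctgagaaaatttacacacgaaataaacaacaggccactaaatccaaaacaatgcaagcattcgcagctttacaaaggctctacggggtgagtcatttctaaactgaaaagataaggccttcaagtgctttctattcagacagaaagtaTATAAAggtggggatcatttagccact
Hcrt, chr11:100762932-100763181, minus strand: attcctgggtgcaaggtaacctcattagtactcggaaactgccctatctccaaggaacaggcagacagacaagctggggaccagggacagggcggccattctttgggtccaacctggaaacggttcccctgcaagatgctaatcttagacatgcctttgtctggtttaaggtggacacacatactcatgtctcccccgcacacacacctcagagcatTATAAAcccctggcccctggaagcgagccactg
Oxt, chr2:130575919-130576168, plus strand: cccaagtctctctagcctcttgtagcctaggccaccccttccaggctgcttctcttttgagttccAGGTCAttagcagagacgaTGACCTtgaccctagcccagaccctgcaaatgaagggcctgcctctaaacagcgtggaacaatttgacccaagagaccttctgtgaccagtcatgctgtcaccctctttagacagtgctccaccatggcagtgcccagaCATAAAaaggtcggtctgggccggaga
Avp, chr2:130582589-130582838, minus strand: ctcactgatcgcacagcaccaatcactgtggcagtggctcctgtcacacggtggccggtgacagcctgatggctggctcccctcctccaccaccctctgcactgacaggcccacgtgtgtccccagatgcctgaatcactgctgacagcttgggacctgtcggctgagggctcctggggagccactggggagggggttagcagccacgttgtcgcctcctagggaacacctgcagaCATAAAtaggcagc

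The Pmch and Hcrt windows hold TATAAA, starting 27 and 33 bases before the start site. The Oxt and Avp windows hold CATAAA in its place, starting 27 and 14 bases before it, and Oxt also holds AGGTCA 185 bases before the start site and on the opposite strand at 166. GC content was 38.4% in the Pmch window, 53.6% in that of Hcrt, 54% in Oxt and 62.4% in Avp. Oxt and Avp are neighbours on chromosome 2 with 3565 bases between their annotated ends, and the Oxt window lies inside the annotated Oxt locus, which starts further upstream in the gene table. TATAAA on either strand occurred in 14.7% of 394 promoters of genes higher in the hypothalamus, 9.1% of 14432 promoters of genes tested and 12.4% of all 32851 promoters of the table. CATAAA occurred in 9.9%, 7.55% and 10.8% of the same sets, and AGGTCA in 10.9%, 11.6% and 14%. In 161 promoters of genes lower in the hypothalamus the shares were 16.8%, 11.2% and 13%, each above that of the higher genes. A match is a description of these letters and not a measured site.

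Pmch encodes the precursor of melanin-concentrating hormone, made in the lateral hypothalamus. Its level was 5.93 in KO and 5.92 in WT hypothalamus, against a lowest, median and highest of -5.72, -3.95 and -1.09 over the 9 other arrays. No other array came within 7.01 of the hypothalamus, and the highest of them was Hippocampus KO. The difference was 9.27 (SE 0.27, limma adjusted p = 0.000157), the largest of all genes tested. With normexp, another background correction, the difference of Pmch was 7.93. Hcrt, the orexin precursor of neighbouring lateral neurons, read 5.36 in KO and 5.49 in WT hypothalamus, against -1.75, -1.58 and -0.35 elsewhere. The other arrays lay close together and far below, and the difference was 6.78 (SE 0.14, limma adjusted p = 5.25e-05), or 110-fold.

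Oxt, the oxytocin precursor, read 5.35 in KO and 4.37 in WT hypothalamus, against -2.55, -1.46 and -1.09 on the others. Avp, the vasopressin precursor, read 5.08 in KO and 4.46 in WT hypothalamus, against -4.40, -3.61 and 0.12. For both genes KO exceeded WT within the hypothalamus, and both hypothalamus arrays lay well above the other 9. The difference from the other regions was 6.48 for Oxt (SE 0.22, limma adjusted p = 0.000185) and 7.5 for Avp (SE 0.22, limma adjusted p = 0.000157). With normexp the difference of Avp was 6.42. The highest of the 9 others was Striatum KO for Oxt and Amygdala KO for Avp. Against Amygdala KO alone Pmch differed by 7.57, Hcrt by 6.73, Oxt by 6.41 and Avp by 4.79 (limma adjusted p = 0.00595, 0.000772, 0.00548 and 0.012). With the array labelled Amygdala WT added to the amygdala, they stood at 8.50, 6.07, 5.85 and 7.01 against all other regions. The limma adjusted p was then higher for all 4 genes, at most 0.0176 (Hcrt), and stayed under 0.05. That array was left out partly for its levels of these 4 genes, so their p-values depend on that choice. In bulk RNA, fewer cells of a type and less RNA per cell cannot be told apart.

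**Figure D1:**
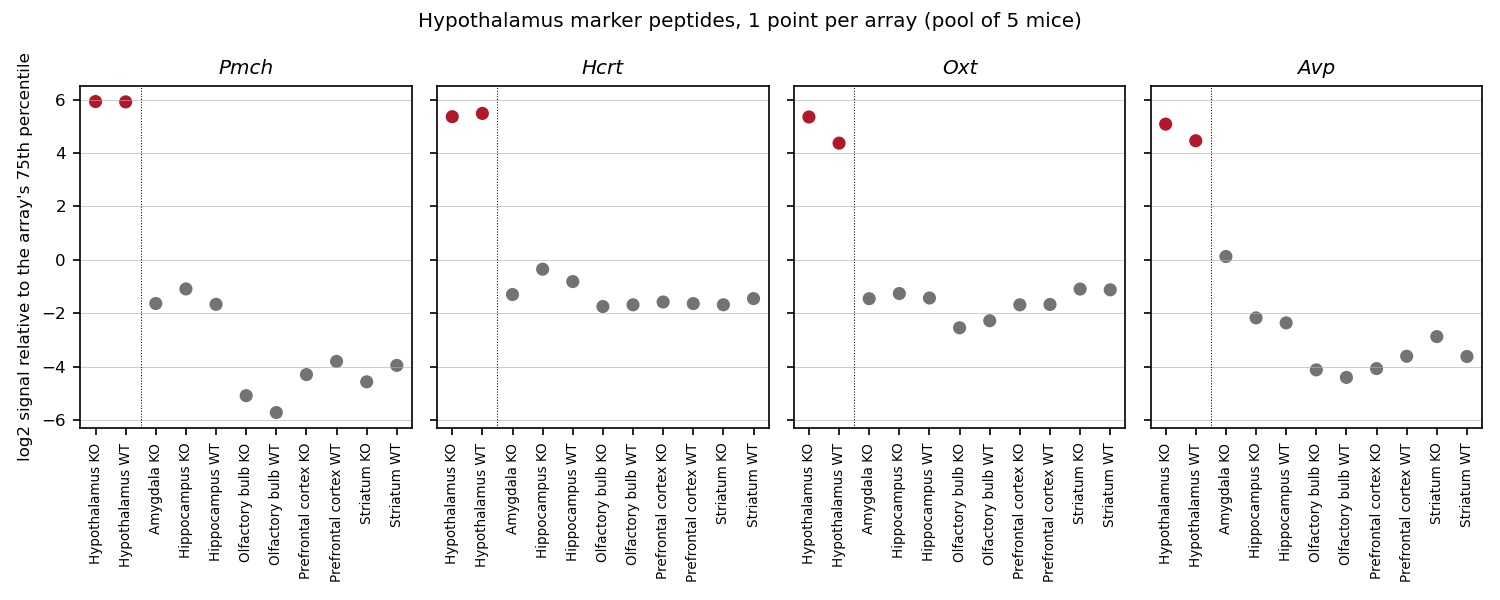
Level of Pmch, Hcrt, Oxt and Avp on each of the 11 arrays (vertical axis, log2 signal minus that of the array's 75th percentile), 1 point per array and pool of 5 mice, with hypothalamus arrays in red and the others in grey. Both hypothalamus arrays lie above all 9 others for every gene, and the highest of the 9 for any of them is 0.12, Amygdala KO for Avp.

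Over all 25412 genes and unnamed transcripts tested, 635 (2.5%) were higher and 456 (1.79%) lower in the hypothalamus, by an adjusted p under 0.05 and a difference of at least 1. Of these, 411 and 161 had names. A gene was tested if well above background on both hypothalamus arrays or on at least 5 of the 9 others, and 153 of the 635 higher genes, of 782 such genes tested, passed only through the hypothalamus. These could come out higher or not called, so the values of those named below are descriptions. The median difference over all genes was -0.081. Among the higher genes 143 were at least 4-fold and 27 at least 16-fold higher, while 29 of the lower genes were at least 4-fold lower. Both hypothalamus arrays lay above all 9 others for 940 genes (3.7%) and below all of them for 898 (3.53%), and 320 of the higher and 151 of the lower genes were among these. The counts rest on the spread within regions. In a fit with only 2 groups, where differences among the other regions count as spread, 22 genes were higher and 0 lower (limma, 1719 at unadjusted p under 0.05), and with the slide as a random block 2 and 0 (202 at unadjusted p under 0.05). All 4 markers were among the 22, and Hcrt was among the 2. Against the other regions of the same scan day alone (olfactory bulb, striatum and Amygdala KO), a comparison chosen after the data were seen, 762 genes were higher and 509 lower, and the markers differed by 6.56 (Oxt) to 9.69 (Pmch).

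**Figure D2:**
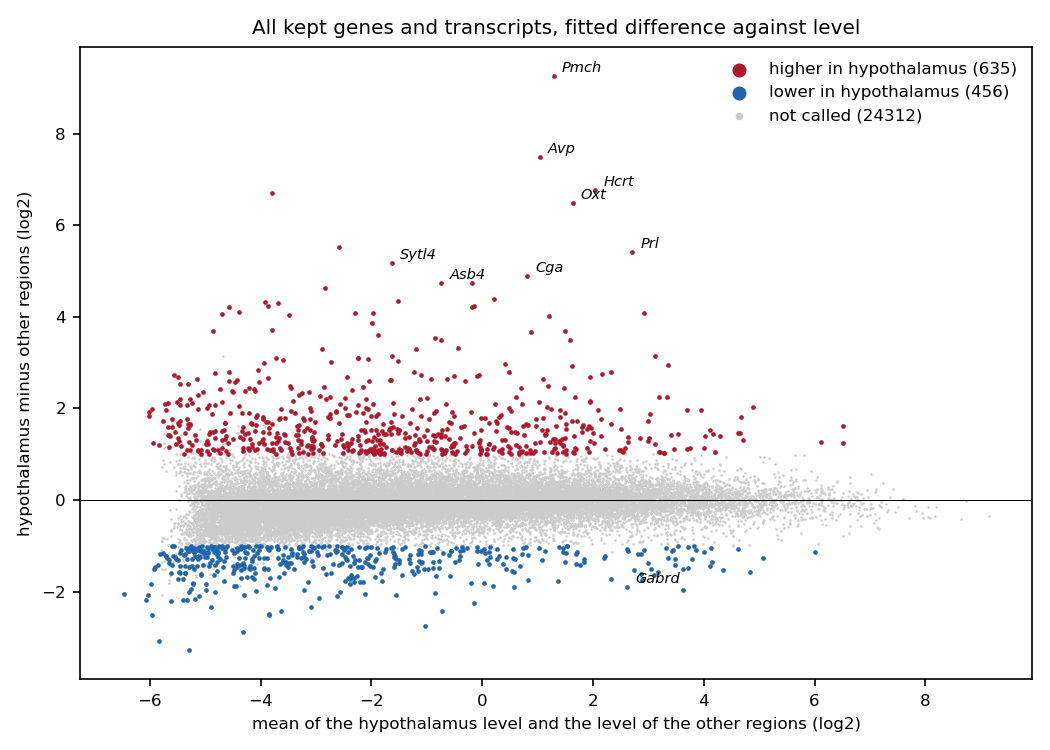
Fitted difference, hypothalamus minus the other regions (vertical axis, log2), against the mean of the hypothalamus level and the level of the other regions (horizontal axis, log2 minus that of the array's 75th percentile), 1 point per gene or transcript with a fitted value. The 635 higher genes reach 9.27 (Pmch), and the 456 lower ones reach -3.29 and lie mostly at dim levels.

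The other regions differed in how far they stood from the hypothalamus. In the same fit 161 genes (0.634%) were higher and 24 (0.0944%) lower than in Amygdala KO, 906 (3.57%) and 2047 (8.06%) against hippocampus, 1024 (4.03%) and 962 (3.79%) against prefrontal cortex, 1727 (6.8%) and 2328 (9.16%) against olfactory bulb, and 2746 (10.8%) and 3910 (15.4%) against striatum. The amygdala contrast rests on 1 array. Amygdala KO was the highest of the 9 others for 167 (52.2%) of the 320 genes that were higher and above all others, hippocampus for 55 (17.2%) and prefrontal cortex for 16 (5%). It read within 2-fold of the hypothalamus for 378 (59.5%) of the 635 higher and 395 (86.6%) of the 456 lower genes. The matching shares over all genes were not counted. Of 8747 bright genes, 88 lay at least 2-fold apart between Amygdala KO and Hypothalamus KO. Nearness of this array to the hypothalamus is thus not particular to the called genes. Without both amygdala arrays 883 genes were higher and 1019 lower.

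Over 4 lists of hypothalamic peptide precursors with 34 entries, 29 were measured, 19 (65.5%) were higher against 2.5% of all genes, 0 were lower against 1.79%, and the median difference was 2.08. Both hypothalamus arrays lay above all others for 14 and below all others for 1, against 3.7% and 3.53% of all genes.

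Of the lateral hypothalamus peptides 7 of 8 were higher, with a median of 2.87. Cartpt, which encodes the appetite-reducing CART peptide, read 3.45 in KO and 3.20 in WT hypothalamus, against -1.52, -0.85 and 2.0 elsewhere, and the difference was 3.49 (SE 0.15, limma adjusted p = 0.000315). Gal, the galanin precursor, read 3.18 and 2.99 against -1.04, -0.44 and 1.52, a difference of 2.93 (SE 0.17, limma adjusted p = 0.00056). Both were above all 9 others, while the next 3 were not. Nts, the neurotensin precursor, read 1.95 and 1.82 in KO and WT hypothalamus and 2.09 on Amygdala KO, with a difference of 2.80 from all other regions and -0.16 from Amygdala KO. Tac1 (substance P) and Pdyn (dynorphin) differed by 1.81 and 1.14, and striatum KO exceeded the hypothalamus for both, at 3.40 and 5.62. Qrfp, a peptide of few lateral neurons, was dim everywhere, with a difference of -0.88 that did not reach the size required.

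Of the paraventricular and supraoptic peptides 6 of 7 were higher, with a median of 2.44. Besides Oxt and Avp, Trh, the thyrotropin-releasing hormone precursor, read 1.18 in KO and 0.49 in WT hypothalamus, against -3.70, -2.41 and 1.23 elsewhere, the last on Olfactory bulb WT. The bulb thus matched the hypothalamus for Trh, whose difference was 2.70 (SE 0.17, limma adjusted p = 0.000733). Adcyap1, the PACAP precursor, was above all others with a difference of 2.44, and Nnat, an imprinted membrane protein gene of neurons that stands in this list, with 2.24. Sst, the somatostatin precursor, was 1.46 higher, with Amygdala KO above it at 5.77. Penk, the enkephalin precursor, showed 0.06 (limma adjusted p = 0.523), and its arrays ran from 4.23 in Hippocampus KO to 9.03 in Striatum WT.

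Of the arcuate peptides 5 of 8 were higher, with a median of 1.85. Pomc, precursor of the appetite-reducing melanocortin and of pituitary corticotropin, read 5.04 in KO and 4.87 in WT hypothalamus, against -0.36, 0.12 and 3.62, the highest being Amygdala KO. Amygdala KO was the nearest array, and the difference was 4.09 (SE 0.27, limma adjusted p = 0.000791), or 17.1-fold. Agrp, which opposes melanocortin and stimulates feeding, read -0.81 in KO and -0.58 in WT hypothalamus, against -4.28, -3.71 and -3.21. The other arrays lay close together here, and the difference was 3.09 (SE 0.26, limma adjusted p = 0.00135). Ghrh, the growth-hormone-releasing hormone precursor, was 2.09 higher and above all others, at 1.39 in KO and 1.14 in WT hypothalamus against at most -0.36. Pnoc (nociceptin) was 1.63 higher. Nmu, the neuromedin U precursor, was not well above background on any of the 9 others and was at least 1.55-fold higher. With normexp, another background correction, Nmu had 0.12 and was not called. Without either hypothalamus array alone its call was lost (limma adjusted p = 0.0892 without KO and 0.131 without WT).

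The remaining arcuate genes did not pass. Npy, which arcuate AgRP neurons make beside neurons of cortex and hippocampus, read 1.36 in both KO and WT hypothalamus, against 1.44, 1.95 and 2.72, so that both hypothalamus arrays lay below all 9 others, with a difference of -0.75 that was short of the size required. Tac2 (neurokinin B) had 0.89 and Kiss1 (kisspeptin) 0.65. Of 6 measured genes of the dorsomedial and other tuberal list, Grp, the gastrin-releasing peptide precursor, was 2.72 higher, at 1.10 in KO and 1.51 in WT hypothalamus and 1.47 on Amygdala KO. Npb, Npff, Cck, Nmb and Ucn3 lay between -0.51 and 0.92 without passing, and the median of that list was 0.02.

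**Figure D3:**
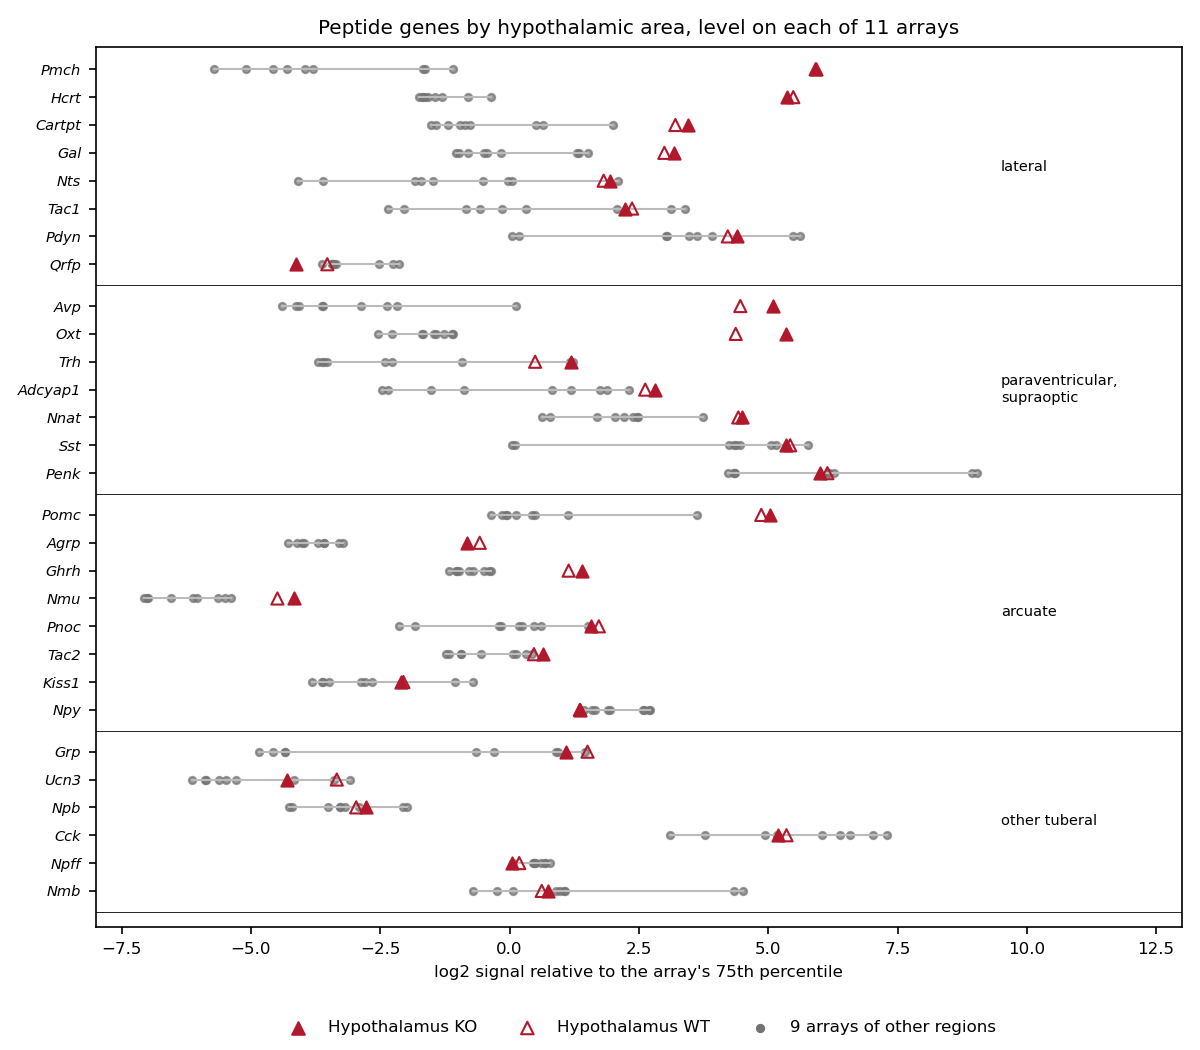
Level of each measured peptide gene (horizontal axis, log2 signal minus that of the array's 75th percentile), with KO hypothalamus as filled triangles, WT hypothalamus as open triangles and the 9 other arrays as grey dots joined by a line, grouped by hypothalamic area. Pmch, Hcrt, Avp and Oxt lie far to the right of their grey dots, and both Npy triangles lie just to the left of theirs.

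Genes of the regulated secretory pathway, which packs and cuts peptide precursors, were higher in part. Of 18 measured, 5 were higher and 0 lower (2.5% and 1.79% over all genes), with a median of 0.50. Sytl4, which encodes granuphilin, a protein that docks secretory granules, read 1.27 in KO and 0.64 in WT hypothalamus, against -5.80, -4.56 and -1.90, a difference of 5.17 (SE 0.22, limma adjusted p = 0.000315). It was 36.1-fold higher, with Amygdala KO the next array. Sytl4 was well above background on 5 of the 9 others, so this fold rests in part on values that were not. Resp18, a protein of endocrine granules, was 2.79 higher, Pcsk1, which encodes the prohormone convertase 1, 1.70, the granin Scg2 1.46 and the release factor Cadps2 1.17. Among the 13 that were not called, Cpe, the carboxypeptidase that trims peptide ends, had 0.07, the granin Scg3 0.14 and the convertase Pcsk2 -0.33. The call of Cadps2 was lost without either hypothalamus array (limma adjusted p = 0.107 without KO and 0.151 without WT) and without both striatum arrays (0.61).

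Of 32 measured transcription factors of hypothalamic development and identity, 10 were higher and 2 lower (2.5% and 1.79% over all genes). The other 20 did not pass or could not be fitted. The median was 0.28. Of the 32, 8 were tested only because of the hypothalamus arrays, 4 of them among the 10 higher, and 6 of the 10 also passed through the other arrays. With normexp, another background correction, 6 were higher. Nkx2-1, which specifies ventral hypothalamus and also basal forebrain, read -1.35 in KO and -1.62 in WT hypothalamus, against -7.51, -6.90 and -2.13, the highest being Striatum WT. It was well above background on 3 of the 9 others, and most of those 9 values lie below background, so the difference of 4.03 is a description. Hmx3 had 3.31, Isl1 3.30, Sim1, which paraventricular neurons need, 2.53 (0.47 and not called with normexp, and well above background on 1 of the 9 others), Foxb1, a mammillary factor, 2.10, Tbx3, an arcuate factor, 1.48, and Nkx2-2 1.01. Six6, which the suprachiasmatic nucleus needs, and Irx5 were not well above background on any of the 9 others. They were at least 1.68-fold and 1.17-fold higher by the main background correction. With normexp Six6 had 0.40 and Irx5 0.02, neither called. Ebf3 was called with 2.22 by its brightest probe, and another of its probes gave -0.63. Its call was lost without either hypothalamus array (limma adjusted p = 0.132 without KO and 0.0991 without WT), and that of Foxb1 without Hypothalamus KO (0.059). Nkx2-2 fell short of a difference of 1 in 5 of the fits that left out 1 array, with 0.87 without Hypothalamus KO. Isl1 alone of these 10 did not lie above all 9 others, since Striatum WT read 0.92 against 0.61 in KO and 0.32 in WT hypothalamus.

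The factors that were lower were Pou3f1, with -1.97, and Meis2, a factor of striatum and bulb neurons, with -1.35, both highest on Striatum WT. Without both striatum arrays Meis2 stood at -0.86 and was not called. Nkx2-4, Hmx2, Dlx1, Lhx6, Lhx9, Six3, Pou3f2, Nr5a1, Nr5a2, Onecut2, Onecut3, Foxa2, Zic1, Nhlh2, Prox1 and Neurog3 ran from -0.43 to 1.61 without passing. Lhx8 had a missing spot and no fitted value. Nr5a1, which encodes SF-1, the factor of the ventromedial nucleus, was among those that did not pass, with 0.17 and levels of -1.68 in KO and -1.61 in WT hypothalamus against -2.58, -1.54 and -1.18. Of 7 measured mammillary genes 3 were higher (1 without Hypothalamus KO), among them Foxb1 and Sim2 with 1.34. Of 10 preoptic and suprachiasmatic genes 4 were higher: Avp, Hmx3, Six6 and Gnrh1, the gonadotropin-releasing hormone precursor, with 1.19. Over all genes, for comparison with both lists, 2.5% were higher and 1.79% lower. Without Hypothalamus KO the differences of Sim2 and Gnrh1 were 0.75 and 0.69, and neither was called, and Gnrh1 was not called without Amygdala KO either, with 0.94.

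Other genes known from tuberal hypothalamus were higher in 14 of 20 measured and lower in 1, against 2.5% and 1.79% of all genes. The median was 1.47, and the same number, 14, lay above all 9 others, against 3.7% of all genes. Asb4, a ubiquitin ligase subunit of arcuate neurons, read 1.83 in KO and 1.42 in WT hypothalamus, against -4.06, -3.09 and -2.03, and the difference was 4.75 (SE 0.10, limma adjusted p = 5.25e-05). Hdc, the enzyme that makes histamine and marks tuberomammillary neurons, read 1.18 in KO and 1.29 in WT hypothalamus, against -4.52, -2.06 and -0.55, with 3.33 (SE 0.17, limma adjusted p = 0.000388). Neither gene overlapped any other array. Dlk1, Resp18, Hap1, Ndn, Sparc, Zcchc12, Ngb, Nap1l5, Ahi1, Gaa and Peg3 were higher by 1.10 to 3.61. Peg10 was also called, but it was not well above background on any of the 9 others and gives no fold. Ecel1, Calcrl, Gpr101, Calcr and Irs4 did not pass. Doc2g, which the olfactory bulb makes strongly, was 1.54 lower. The call of Doc2g was lost without either hypothalamus array, that of Ngb without Hypothalamus WT (limma adjusted p = 0.0562), and that of Peg3 without Hypothalamus KO, where its difference was 0.88.

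The choice of probe bears on Irs4 and Calcr of that list and on some other genes. Of 4456 named genes with several probes kept, 15 had probes at least 2 apart, and 5 of them were not called by the brightest probe while another probe gave at least 2. For Irs4, an insulin receptor substrate of hypothalamus, the brightest probe gave -0.16 and another 5.56. For Calcr, the receptor of calcitonin and, with its partners, of amylin, they gave -0.20 and 4.84. Fndc3c1 had -0.14 and 3.21, Uncx 0.00 and 2.57, and Galr1, a galanin receptor, -0.89 and 2.23. The lists and counts use the brightest probe, so these genes stand there as not called.

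Imprinted genes, which are expressed from 1 parental copy, overlapped these markers. Of 23 measured, 11 were higher, 0 lower and 11 above all 9 others (2.5%, 1.79% and 3.7% over all genes), with a median of 0.95. Dlk1, a regulator of cell differentiation, read 0.23 in KO and -0.37 in WT hypothalamus, against -5.01, -3.90 and -1.80, a difference of 3.61 (SE 0.21, limma adjusted p = 0.000567). Asb4, Nnat, Ndn, Nap1l5, Peg3 and Peg10 were shared with the lists above. Usp29, Grb10, Zim1 and Gnas made up the rest of the 11, with 1.44, 1.41, at least 1.21-fold and 1.05. With normexp Zim1 had 0.225 and Gnas 0.961, neither called. Usp29 read 4.26 on both hypothalamus arrays, against 1.99, 2.56 and 4.19, the highest on Amygdala KO. For Gnas, which encodes a G protein subunit, another probe gave -0.43, and the difference was 0.85 without Hypothalamus WT and 0.98 without Prefrontal cortex WT, with no call. Impact and Blcap were above all others with differences of 0.95 and 0.66, short of the size required, and Igf2, Mest and Ube3a had 0.14, -0.08 and 0.16.

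Of 20 receptors and related genes of feeding and body weight, 4 were higher and 0 lower (2.5% and 1.79% over all genes). The median was 0.15. Cckar, a cholecystokinin receptor, read -1.53 in KO and -1.94 in WT hypothalamus, against -7.58, -6.51 and -3.49, with 4.24. It was well above background on 1 of the 9 others, Amygdala KO being the highest in level, so that difference is a description. Htr2c, a serotonin receptor that curbs appetite, was 2.61 higher, with Amygdala KO above the hypothalamus at 1.60. Npy2r, an NPY receptor, was 2.60 higher, with Hippocampus KO above it, and Crhr2, a receptor of the urocortins, 1.54 higher. Mc4r, the melanocortin receptor, had -0.23 and Ghsr, the ghrelin receptor, 0.58, and neither passed.

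Of 20 receptors of releasing hormones and other peptides, 2 were tested only because of the hypothalamus arrays, and both came out higher. Among the 20, 8 were higher and 0 lower (2.5% and 1.79% over all genes), with a median of 0.55. The count was 5 without either hypothalamus array and 2 with normexp, and without Amygdala KO 2 were lower. Trhr, the receptor of thyrotropin-releasing hormone, was 3.07 higher, at -0.88 in KO and -0.16 in WT hypothalamus and -0.17 on Amygdala KO. Avpr1a, a vasopressin receptor, read -2.48 in KO and -2.80 in WT hypothalamus, against -6.57, -5.53 and -4.84, with 2.85. Avpr1a was above all others, whereas Trhr was not, and it was well above background on 3 of the 9. With normexp Avpr1a had 0.86 and Tacr3 0.74, neither called. Tacr3 (neurokinin B), Oprl1 (nociceptin), Oprk1 (dynorphin), Tacr1 (substance P), Ntsr1 (neurotensin) and Sstr2 (somatostatin) were higher by 1.00 to 2.30. With a gene's probes averaged, Tacr1 had 0.297 and Oprl1 0.735, neither called. Against the regions of the same scan day Tacr1 had -0.12. Avpr1b, another vasopressin receptor, lay below all 9 others with -0.99, short of the size required. Without Hypothalamus KO or WT the calls of Avpr1a, Oprk1 and Sstr2 were lost (limma adjusted p = 0.0695, 0.323 and 0.11 without KO), and Oprk1, Sstr2 and Ntsr1 were also lost without some single arrays of other regions. Of 13 genes of steroid and thyroid hormone action 3 were higher and 1 lower (2.5% and 1.79% over all genes). Esr1, the oestrogen receptor alpha, read -0.47 in KO and -0.23 in WT hypothalamus, against -4.68, -3.50 and -0.66, with 2.62 (SE 0.20, limma adjusted p = 0.00115) by its brightest probe and -0.69 by another. Cyp19a1, the aromatase that makes oestradiol, was 1.81 higher, and Dio3, which inactivates thyroid hormone, 1.77, with Amygdala KO inside or above the hypothalamus pair for both. Cyp19a1 was well above background on 3 of the 9 others and had 0.31 with normexp, not called. Dio2, which activates thyroid hormone, was 1.27 lower and below all 9 others, at 1.47 in KO and 1.68 in WT hypothalamus against at least 2.05.

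Slc17a6, the vesicular glutamate transporter VGLUT2 of subcortical neurons, read 1.98 in KO and 1.86 in WT hypothalamus, against -2.62, -0.50 and 1.79, with 2.45 (SE 0.07, limma adjusted p = 0.000157). It was above all 9 others, by 0.07 over Amygdala KO. Slc17a7, VGLUT1 of cortical neurons, had 0.17 and did not pass, with hypothalamus levels of 0.52 in KO and 0.53 in WT against 1.80 on Prefrontal cortex KO and -3.04 on Striatum WT. Of 15 glutamate neuron genes 1 was higher and 0 lower (2.5% and 1.79% over all genes). Of 19 GABA neuron genes, Gabrg1 was 1.74 higher and Gabrd, the delta subunit of the GABA-A receptor, 1.91 lower. Gabrd read 1.69 in KO and 1.62 in WT hypothalamus, against 2.53, 3.1 and 5.46, below all 9 others. Slc32a1, the vesicular GABA transporter, had 0.17 and did not pass.

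Of 20 monoamine and acetylcholine genes 7 were higher and 1 lower (2.5% and 1.79% over all genes), with a median of 0.34. With normexp 2 were higher, and 4 against the regions of the same scan day. Besides Hdc, the higher genes included Ddc, the decarboxylase of dopamine and serotonin synthesis, with 2.0, and the dopamine transporter Slc6a3 with 1.45. The others were the vesicular monoamine transporter Slc18a2 with 1.45, Slc10a4 with 1.25, Gch1, which makes a hydroxylase cofactor, with 1.12, and Ache with 1.10. Th, the enzyme of dopamine synthesis, had 0.96, short of the size required, with -1.40 in KO and -1.94 in WT hypothalamus against 2.02 on Olfactory bulb KO and a median of -3.57. Tph2, the enzyme of brain serotonin synthesis, was 1.08 lower at levels near background. Without Hypothalamus KO neither Ache (0.95), Slc10a4 nor Tph2 was called (limma adjusted p = 0.0322, 0.0605 and 0.122). Against the other regions of the same scan day alone, Slc10a4 had 0.05 and Slc6a3 0.53 with no call.

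The genes furthest below the other regions differed by less than those furthest above. The 20 named genes with the most negative difference among those below all 9 others ran from -2.20 to -1.47, and the 20 furthest above from 3.61 to 9.27. Arc, an activity-dependent gene of synaptic plasticity, read 1.86 in KO and 2.21 in WT hypothalamus, against 2.36, 4.0 and 4.46, with -1.74 (SE 0.12, limma adjusted p = 0.000791). Its lowest other array was Amygdala KO, 0.15 above WT hypothalamus. Asb11 was 2.09 lower, Ankrd33b 2.07, S100a5, a calcium-binding protein of olfactory tissue, 2.0 (-8.52 against olfactory bulb and -0.61 to -0.18 against each other region), Klrb1c 1.73, Cdkn1a, a cell cycle inhibitor, 1.71, Ackr2 1.66, Inf2 1.64, Kdm8 1.61 and the activin inhibitor Fst 1.59. Lnx1, Tiam2, Tnnt1, Gpd1, Ms4a19, Sema7a and Sema3e were lower by 1.47 to 1.57. Another probe of Lnx1 gave 0.54, and with its probes averaged Lnx1 had -0.17 and was not called. Olfr45 and Spp2 were not well above background on either hypothalamus array and were at least 2.18-fold and 1.51-fold lower. With normexp Olfr45 had -0.65 and Spp2 -0.59, neither called. Without Hypothalamus WT the calls of Olfr45 and Fst were lost (limma adjusted p = 0.174 and 0.0508).

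Of 29 genes of pallium and cortex, 3 were higher and 3 lower, against 2.5% and 1.79% of all genes. Without Hypothalamus KO 0 were lower, without Hypothalamus WT 1 was higher and 1 lower, and against the regions of the same scan day 7 were higher and 0 lower. The median was -0.01, against -0.081 for all genes. Camk2a had -1.57 by its brightest probe and 0.24 by another, and Egr3 -1.26. Bhlhe22, Slc30a3 and Lmo3 were higher by 1.78, 1.10 and 1.02, and for none of them did the hypothalamus exceed all others. Tbr1, Emx1 and Neurod2, markers of glutamatergic pallium, had 0.37, 0.02 and -0.01. Camk2a, Egr3 and Slc30a3 lost their calls without either hypothalamus array (limma adjusted p = 0.15, 0.102 and 0.172 without KO). Without both striatum arrays Bhlhe22 stood at 0.69 and Slc30a3 at 0.29, neither called, and Lmo3 fell below 1 in 4 of the fits that left out 1 array. Of 19 striatum genes 1 was higher (Tac1) and 0 lower (6 lower against the regions of the same scan day), of 15 olfactory bulb genes 4 were higher and 3 lower, and of 15 hippocampus genes 5 were higher and 0 lower. Of 15 amygdala genes 7 were higher and 2 lower (2.5% and 1.79% over all genes), with a median of 0.89. Of those 7, Cyp26b1, Lypd1 and Sst had Amygdala KO as the highest other array and above both hypothalamus arrays, at 3.28, 4.70 and 5.77.

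**Figure D4:**
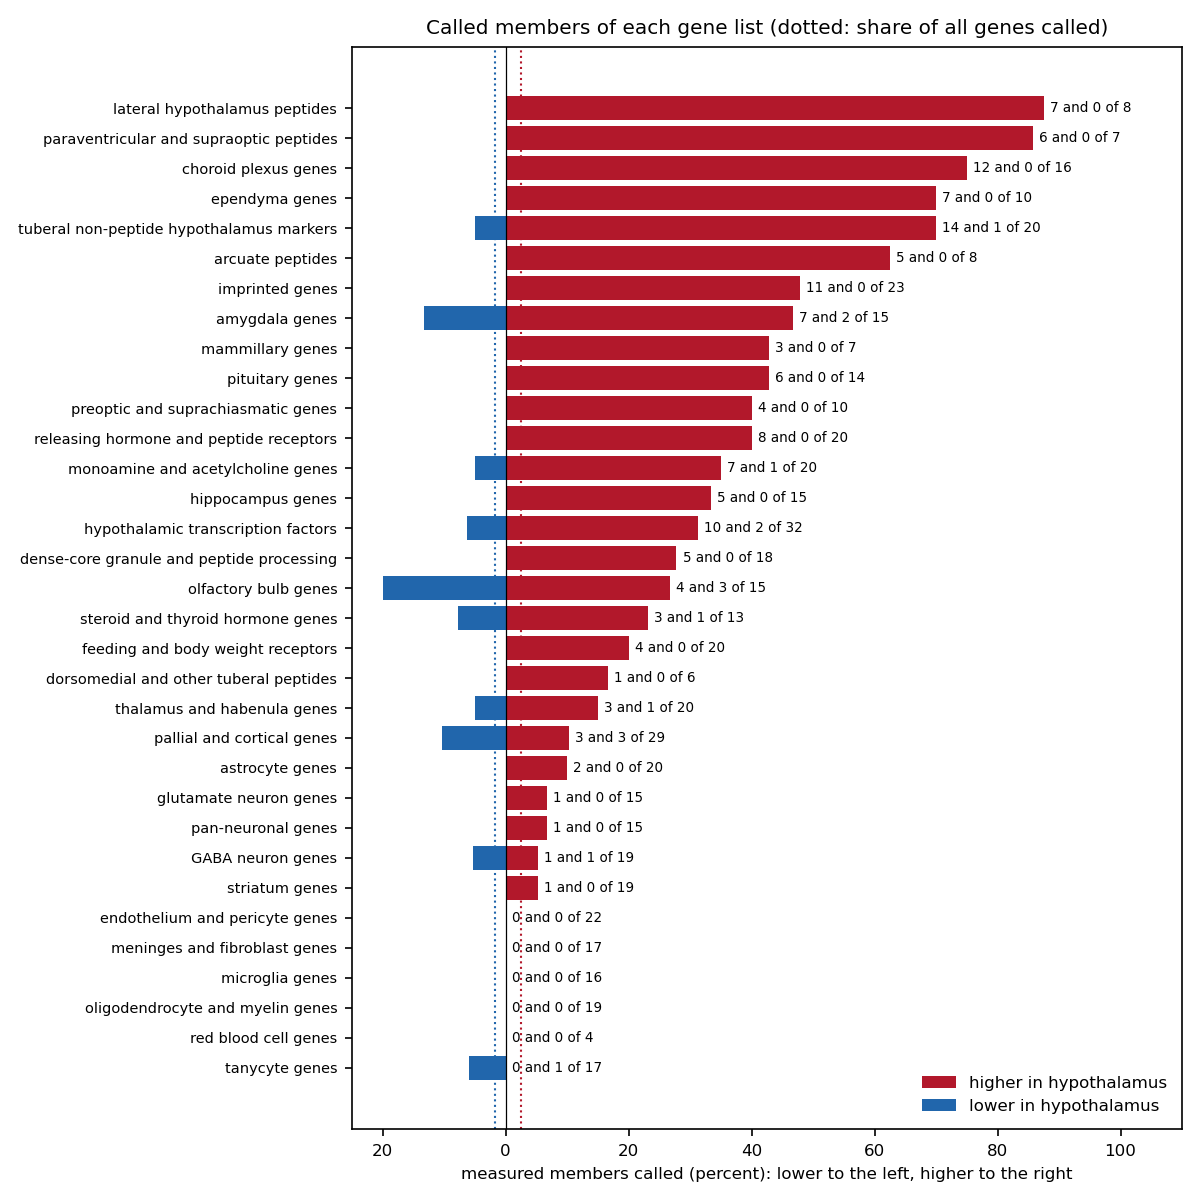
Percent of the measured members of each gene list that were higher (red, to the right) or lower (blue, to the left) in the hypothalamus, with the counts higher and lower of those measured beside each bar. Dotted lines mark the shares over all genes, 2.5% higher and 1.79% lower. The lateral hypothalamus peptides top the list with 7 of 8 higher, and vascular, microglial, myelin, meninges and red blood cell genes have no call.

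Among lists of tissue in or beside the hypothalamus, those of pituitary, choroid plexus and ependyma held higher genes. Those of meninges and tanycytes held none by the brightest probe. Of 14 pituitary genes 6 were higher and 0 lower (2.5% and 1.79% over all genes). Of the 6, 1 was tested only because of the hypothalamus arrays. Prl, prolactin, read 5.80 in KO and 5.10 in WT hypothalamus, against -2.22, -0.62 and 3.1, with 5.43 (SE 0.69, limma adjusted p = 0.00399). Gh, growth hormone, read 2.77 in KO and 1.21 in WT hypothalamus, against -4.17, -2.83 and 0.81, with 4.25 (SE 0.78, limma adjusted p = 0.0121). Amygdala KO was the highest of the others for both, and KO exceeded WT in the hypothalamus for both. Cga, the shared subunit of pituitary glycoprotein hormones, was 4.88 higher, Pomc 4.09, Tshb 2.99 and Pitx1 2.24, and Lhb, Fshb, Lhx3, Lhx4, Tbx19, Gpha2 and Chga did not pass. The summed level of the 14 was 7.34 in KO and 6.85 in WT hypothalamus, against 4.62 to 5.84, highest on Amygdala KO. Prl, Gh, Cga and Pomc rank among the 20 genes furthest above, and the part of pituitary RNA in them was not tested. Without Hypothalamus KO 3 of the 14 were called, and Prl, Gh and Tshb were not, with differences of 4.54, 3.05 and 2.17 (limma adjusted p = 0.0566, 0.127 and 0.0955).

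Of 16 choroid plexus genes 12 were higher (2.5% over all genes), with a median of 2.11. Yet none had both hypothalamus arrays above all others (3.7% over all genes). Ttr, the carrier of thyroid hormone in cerebrospinal fluid, read 1.55 in KO and 2.71 in WT hypothalamus, against -6.91, -4.20 and 3.07, the last on Hippocampus KO. The summed level of the list was 5.31 in KO and 6.09 in WT hypothalamus, against 4.03 to 6.36, with Hippocampus KO on top, and its KO minus WT median in the hypothalamus was -1.11. Without Hypothalamus WT 1 of the 16 was called, and Ttr was not (3.38, limma adjusted p = 0.118), nor were Kcne2, Kl, Folr1, Calml4, Enpp2 and Sostdc1. Of the 12 higher, 5 were tested only because of the hypothalamus arrays. The part of choroid plexus RNA in the calls was not tested. Of 10 ependyma genes 7 were higher with a median of 1.10 (4 with normexp and 4 against the regions of the same scan day), and the summed level was 3.97 in KO and 3.82 in WT hypothalamus against 1.95 to 3.74. Of 17 tanycyte genes, those of the cells lining the third ventricle, 0 were higher and 1, Dio2, was lower (1.79% over all genes). For Fndc3c1, a member of this list that was not called, another probe gave 3.21. Meninges genes had 0 calls among 17, with summed levels of 5.93 in KO and 6.93 in WT hypothalamus against 4.96 to 7.52.

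Lists of endothelium and pericytes, microglia, myelin, meninges and red blood cells had 0 calls in either direction among 77 measured genes, by limma, against 2.5% higher and 1.79% lower over all genes. Their median was -0.04. Within them, 19 of 22 endothelium and pericyte genes were negative, with a median of -0.29, and 10 passed an adjusted p of 0.05 without reaching the size required. Of 20 astrocyte genes 2 were higher. Agt, angiotensinogen, read 4.81 in KO and 4.60 in WT hypothalamus, against -0.53, 1.73 and 3.27, with 3.16 (SE 0.18, limma adjusted p = 0.000521), and Itih3 was 2.96 higher, both above all others. Of 15 pan-neuronal genes Gap43, a growth cone protein, was 1.65 higher and 14 did not pass. Of 20 thalamus and habenula genes 3 were higher and 1 lower, with a median of 0.12.

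**Figure D5:**
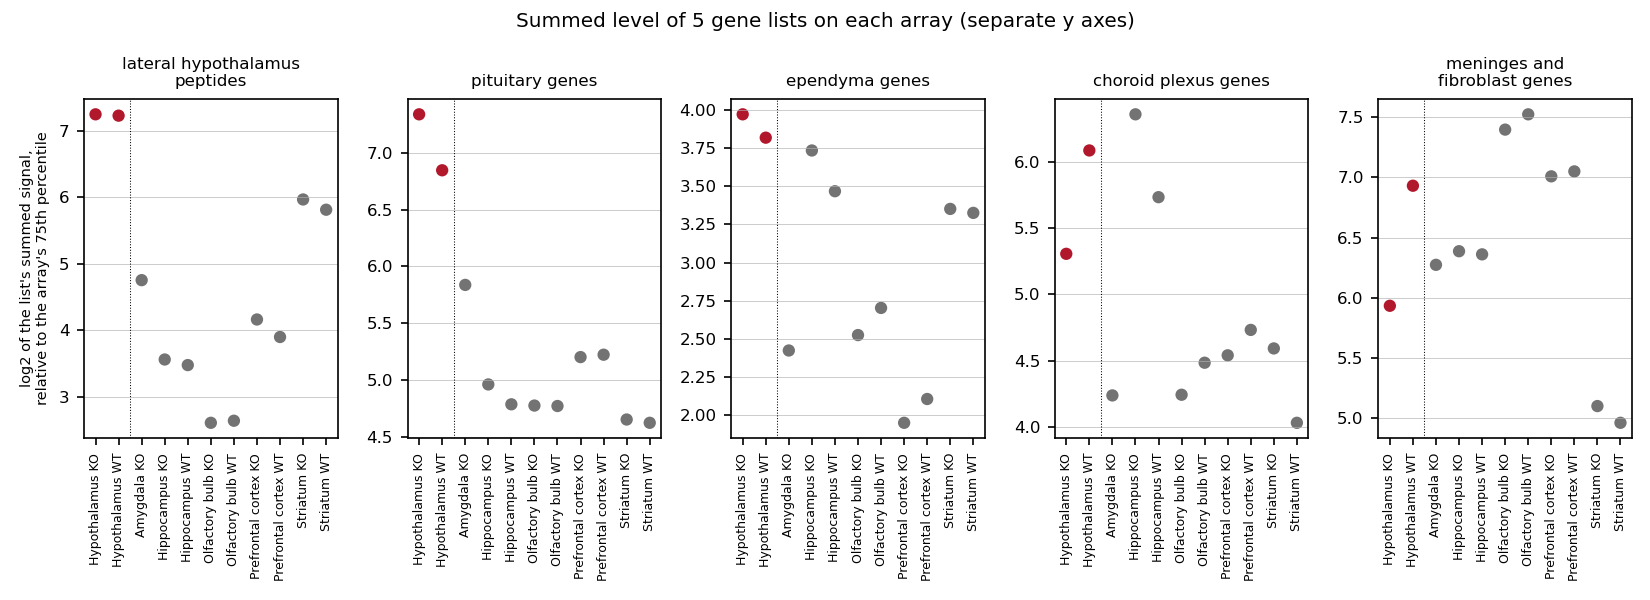
Summed level of 5 gene lists on each array (vertical axis, log2 of the summed signal minus that of the array's 75th percentile, on a scale of its own in each panel), with hypothalamus arrays in red and the 9 others in grey. The lateral hypothalamus peptides reach 7.25 in KO and 7.23 in WT hypothalamus against at most 5.97 on Striatum KO, while the choroid plexus list is higher on Hippocampus KO, at 6.36, than on either hypothalamus array.

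Further genes among the 20 furthest above were Gpx3, a secreted glutathione peroxidase, with 4.21, Lhx5, a factor of mammillary development, with 4.09, AW551984 with 3.86, and Igsf1, a membrane protein of pituitary and hypothalamus, with 3.66. For all 4, Amygdala KO was the highest other array, and Lhx5 was not called without Hypothalamus KO (limma adjusted p = 0.0742). AW551984 was well above background on 4 of the 9 others and was tested only because of the hypothalamus arrays, so its difference is a description. Another of its probes gave 1.74, and the probes of Igsf1 ran from 1.01 to 3.65. Vmn1r83 and Gsc were not well above background on any of the 9 others and were at least 8.88-fold and 3.82-fold higher. With normexp Gsc had 0.83 and was not called. Vmn1r83 read -0.71 in KO and -2.90 in WT hypothalamus, a spread of 2.19 between them.

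The KO minus WT difference was then set against its mean over olfactory bulb, prefrontal cortex, striatum and hippocampus. No gene of 25412 passed (0%, limma interaction, lowest adjusted p = 0.0904), with 781 at an unadjusted p under 0.05. The named genes of smallest p were ccdc198, H2-M10.3, Olfr1454, Tbx15 and Casp4, with interactions of -3.38, 2.03, -2.11, -2.14 and -1.48, all at levels of -2.07 or lower. For Oxt the interaction was 1.00 (limma adjusted p = 1). KO and WT hypothalamus lay at least 2-fold apart for 360 genes (1.42%), and for 32 of the 635 higher (5.05%) and 32 of the 456 lower genes (7.02%). With 1 array of each genotype per region these single differences have no test.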

How the data were processed

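Per the file headers, the deposited intensity values came from Agilent's Feature Extraction software (version 9.5.3.1), which subtracted background and removed spatial trends. The authors' files apply no scaling between arrays. From the deposited intensity, log2 was taken and the 75th percentile over the 43379 gene spots of each array subtracted. Control and outlier spots were left out, spots of a probe were averaged, and no spot was saturated. Accessions of 22951 of 41174 gene probes (55.7%) matched a RefSeq gene table of GRCm38.p6. Unmatched transcripts stayed unnamed. A probe was kept if well above background on both hypothalamus arrays or on 5 or more of the 9 others, and a gene was read from its brightest kept probe. Where a gene was not well above background on any array of a side, the fold is a bound. It is set by the dimmest signal above background on those arrays. The bound holds for the main background correction and can exceed the difference under normexp.

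Under R 4.3.3, limma 3.58.1 (functions lmFit and eBayes) fitted region and genotype on 11 arrays, with 4 residual degrees of freedom and 1.89 prior ones. The lone Amygdala KO array was assumed to vary like the others. P-values were adjusted by Benjamini-Hochberg over all 25412 genes and transcripts, with a threshold of 0.05 and a log2 difference of at least 1. The fit was tested on simulated data. The arrays, markers and 34 gene lists (617 entries, 60 without a named probe) were chosen with earlier results of these data known. Named genes are the 4 markers, the 20 furthest above and the 20 furthest below among called genes whose groups do not overlap, up to 6 members of each list by size of difference, every measured peptide, transcription factor and tuberal gene, and the 5 genes of smallest interaction p. Il18, genes whose probes disagree, and some list members with small differences (Mc4r, Ghsr, Slc17a7, Slc32a1, Cpe, Scg3, Pcsk2, Tbr1, Emx1, Neurod2, Mest, Ube3a, Igf2) were added for their roles after their values were seen. Alternatives were another background correction (normexp, offset 50, on the median signal, since the files hold no mean signal), other scalings, filters, probe rules, models and arrays. Some genes of these lists stay in the counts and are not reported here by name. Precision is limited by the number of arrays.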

Additional observations from a re-analysis of the deposited data

Results flagged for a closer look

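Among 204 genes named or listed for the text, each was checked for 1 of the 9 other arrays standing apart from the rest by the gap to its nearest neighbour relative to the range (Dixon's ratio above its 95% critical value), and 19 genes had such an array. For 9 arrays drawn alike, chance gives about 1 in 20 genes, and genes of 1 array are not independent. These 9 are not alike, since every other region has a KO and a WT array and Amygdala KO has no partner. The ratio uses the gap to the nearest array, so it favours the unpaired array, and the rate does not hold here. Amygdala KO was the array apart for 17 of the 19, and Striatum WT and Hippocampus KO for 1 each.

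Amygdala KO was the highest of the 9 others for Avp at 0.12, Pomc at 3.62, Dlk1 at -1.80, Ngb at 1.62, Gaa at 5.12, Usp29 at 4.19, Grb10 at 2.06, Cyp19a1 at -2.43, Trhr at -0.17, Gabrg1 at 2.56, Cga at 0.19, Gh at 0.81, Itih3 at 2.73 and AW551984 at -0.91. It was the lowest for Npff at 0.07, Arc at 2.36 and Olfr1454 at -5.95. On each of these genes the array lay toward the hypothalamus level or near it, except Olfr1454, where hypothalamus read -5.42 in KO and -3.56 in WT. Hippocampus KO stood apart for Nr5a2 at -2.62, and Striatum WT for Lhx6 at -1.67, both as the highest of the 9.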

How the results depend on the processing

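With 1 array per region and genotype, the counts rest on 4 residual degrees of freedom, and slide cannot be told apart from region. No paired analysis was possible because each group held 1 array and the labels give no replicate numbers to use as a block. Region and genotype were both terms of the fit, and slide was tried as a random block. Each gene is read from 1 probe, and a gene not well above background on a side has only a bound there.

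The main counts were 635 higher, 456 lower, 940 above all 9 others and 898 below them. Normexp gave 261 higher and 167 lower. Median scaling put 601 above all others, and higher genes were 66.4% of its calls against 58.2%. Without a filter 1112 were lower (higher genes 36.9% of calls) and 4384 below all others, and with a signal above background required on all 11 arrays 321 were higher and 287 lower. Adding Amygdala WT left 293 above and 509 below all others. Leaving out both amygdala arrays gave 1019 lower (higher genes 46.4% of calls), 1713 above and 3205 below. The 2-group fit gave 22 and 0, and with the slide block 2 and 0, where Hcrt had a limma adjusted p of 0.00335, Oxt 0.0802, Pmch 0.317 and Avp 0.617. The same scan day left 1519 above all others, and leaving out striatum 1420 above and 1440 below. Leaving out 1 array gave 534 to 883 higher, 304 to 1019 lower, 970 to 1713 above and 905 to 3205 below, the upper ends all without Amygdala KO. The interaction count was 0 in every fit that could be made. Outside the 2-group fits, the 4 markers were called in each setting that kept their probes.

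Of the named genes' values under other settings, 4625 kept their direction and side of the threshold, 470 lost the call, 54 gained it and 47 changed sign. The 4625 include genes called neither in the main fit nor in the other setting. Of the 470, 130 came from the 2-group fit and 143 from that with the slide block. Sign changes under normexp were Slc17a7 -0.063, Calcr 3.19, Hmx2 -0.084, Six3 -0.12, Nhlh2 -0.042, ccdc198 -0.061, H2-M10.3 -0.036, Olfr1454 -0.27, Casp4 -0.067 and Prox1 -0.16. Averaging probes gave Galr1 0.67, Calcr 2.33, Irs4 2.71, Onecut3 0.79 and Prox1 -0.23, since the probes of these genes disagree. With Amygdala WT, Calcr had 4.64. The same scan day gave Penk -1.08, Cck 0.44, Prok2 -0.039, Mc4r 0.021, Tacr1 -0.12, Pcsk2 0.086, Th -0.12, Slc32a1 -0.40, Calcr 4.11, Dlx1 -0.41 and Foxa2 0.13. Without striatum Vip had -0.24, Cpe -0.018, Slc17a7 -0.61, Irs4 0.012, Nkx2-4 0.043, Dlx1 -0.12 and Pou3f2 0.18. Leaving out 1 array gave ranges of -0.422 to 4.98 for Calcr, whose probes disagree, -0.074 to 1.51 for Hmx2, -0.04 to 0.511 for Six3, -0.72 to 1.39 for Olfr1454, -0.508 to 0.971 for Casp4, -0.53 to 0.16 for Pou3f2, -1.05 to 2.32 for ccdc198 and -1.62 to 0.518 for Tbx15. Except for Calcr, both ends came from fits without 1 of the hypothalamus arrays. Except for averaged probes, the cause was not tested.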
